A study of Rattus norvegicus with 6 samples.

Results

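Complex I of the respiratory chain, NADH:ubiquinone oxidoreductase, takes electrons from NADH, passes them along iron-sulfur clusters to ubiquinone and pumps protons across the inner mitochondrial membrane. It has an arm in the matrix, where NADH and ubiquinone are bound, and an arm in the membrane. A small set of core subunits carries out the reaction, part of them encoded in the mitochondrion and part in the nucleus, accessory subunits surround the core, and assembly factors build the complex without staying in it. Oxidative muscle fibers hold more mitochondria than glycolytic ones, so complex I belongs to the machinery that distinguishes red from white muscle. The genes described here are those of the deposited expression table whose symbol begins with Nduf, case ignored, with 1 row kept per symbol, that of the highest mean over the rats. They are 46 genes in 49 rows, out of 26406 rows in all, namely 7 core subunits, 33 accessory genes and 6 assembly factors named Ndufaf.

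Messenger RNA of the gastrocnemius, a mixed calf muscle, was sequenced from 6 male Sprague Dawley rats of the stock Crl:SD. Rats 3, 9 and 11 were infused with vehicle for 24 h and weighed 356 to 382 g. Rats 4, 10 and 12 were infused with olanzapine, a second generation antipsychotic, at 1 mg per 100 g over 0.5 h and at 0.04 mg per 100 g and hour for the following 23.5 h, and weighed 366 to 400 g. All were infused through a venous catheter, the vehicle rats at the pump rate and volume of the others. Each library is 1 rat, and values are FPKM, fragments scaled by exon length and by mapped fragments, so levels of different genes can be set side by side per length. The number of reads behind these values is unknown, but the steps between the lowest values place the depth of the rats between 0.444 and 1 relative to vehicle rat 3, the lowest being vehicle rat 11. Total FPKM lay between 945068 and 1183006 per rat, the highest being that of olanzapine rat 12. The 6 skeletal muscle markers examined, among them Acta1, skeletal alpha-actin, and Ckm, muscle creatine kinase, together stood at 86195 to 114063 FPKM under vehicle and at 112888 to 156333 FPKM under olanzapine. The others of the 6, Mylpf, Tnnt3, Atp2a1 and Actn3, are also among the fast fiber markers given below. Acta1 and Ckm had log2 fold changes of 0.16 and 0.27, and neither was called. Summed markers of fat, macrophages, nerve, blood, fibroblasts and endothelium overlapped between the groups. The 4 endothelial markers had a median log2 fold change of -0.32 with none called, and summed to 62.5 to 70.0 FPKM under vehicle and to 42.4 to 71.5 FPKM under olanzapine. In whole muscle, fewer fibers of a type and less RNA per fiber cannot be told apart. Of 10 slow fiber markers 8 fell in the olanzapine rats (limma, adjusted p under 0.05), and their summed FPKM was 27244 to 50733 in the vehicle rats and 7645 to 13890 in the olanzapine rats. Fast fiber markers summed to 61226 to 79937 FPKM under vehicle and to 105794 to 143089 FPKM under olanzapine, with none of 11 called. Myh1 alone among them went the other way (log2 fold change -0.65, adjusted p = 0.250 from limma). The part of fiber type in the values of the Nduf genes was not tested.

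The promoters of 3 members are shown because their transcripts had the lowest and the highest log2 fold change of the core genes, for Ndufs1 and Ndufs3, and the highest of the accessory genes with more than a trace of expression, for Ndufb8. Each runs from 250 bases before to 50 bases after the RefSeq start site in assembly GRCr8, 5′ to 3′ on the minus strand, at chr9:72073556-72073855 for Ndufs1, chr3:97339605-97339904 for Ndufs3 and chr1:253362887-253363186 for Ndufb8. Capitals mark a match to a searched motif, which in Ndufs1 and Ndufs3 is on the opposite strand and so appears as the reverse complement of the letters named after the sequences.
Ndufs1: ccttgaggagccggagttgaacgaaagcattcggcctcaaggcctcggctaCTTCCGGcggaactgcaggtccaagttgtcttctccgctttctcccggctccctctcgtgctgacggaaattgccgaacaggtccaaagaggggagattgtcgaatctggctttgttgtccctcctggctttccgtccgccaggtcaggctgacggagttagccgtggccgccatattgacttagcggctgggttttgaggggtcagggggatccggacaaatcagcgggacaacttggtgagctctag
Ndufs3: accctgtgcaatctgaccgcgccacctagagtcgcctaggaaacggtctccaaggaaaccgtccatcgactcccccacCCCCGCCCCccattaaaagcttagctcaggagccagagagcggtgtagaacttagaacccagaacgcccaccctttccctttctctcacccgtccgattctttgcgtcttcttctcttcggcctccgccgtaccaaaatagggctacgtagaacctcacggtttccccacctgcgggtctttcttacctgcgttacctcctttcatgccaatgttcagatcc
Ndufb8: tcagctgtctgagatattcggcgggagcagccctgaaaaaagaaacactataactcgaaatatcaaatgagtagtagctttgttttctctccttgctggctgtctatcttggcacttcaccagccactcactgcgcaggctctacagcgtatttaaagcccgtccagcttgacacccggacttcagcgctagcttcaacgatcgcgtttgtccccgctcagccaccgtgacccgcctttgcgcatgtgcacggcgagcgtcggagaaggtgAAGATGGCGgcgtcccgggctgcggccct
The capitals are a match to the core of ETS factors (CCGGAAG) in Ndufs1, to Sp1 (GGGGCGGGG) in Ndufs3 and to YY1 (AAGATGGCG) in Ndufb8, and in Ndufb8 the match lies after the start site. Among the 41 of 46 members with an entry in the RefSeq promoter table, the letters of NRF1 (GCGC and TGCGC with any 1 base between), a regulator of nuclear genes of respiration, were found in 9 members, or 22.0%, against 4.25% of all 33469 promoters. Those of YY1 were in 7 members, or 17.1%, against 1.73% of all, and those of ETS factors in 8, or 19.5%, against 8.75%. The response element of estrogen-related receptors (AAGGTCA) was in 4 members, or 9.76%, against 4.61% of all promoters, the cyclic AMP response element (TGACGTCA) in 2, or 4.88%, against 1.83%, and Sp1 in 3, or 7.32%, against 9.73%. No match in a member overlapped a match to another of these motifs. Promoters were assigned by symbol. For Ndufb4, Ndufs5, Ndufs6 and Ndufv3 they are those of the RefSeq genes of that name, while the rows taken are short loci described below. All of these symbols are among the 9 with NRF1 letters. Ndufb4, Ndufs5 and Ndufs6 are also among the 4 with the element of estrogen-related receptors, and Ndufs6 among the 7 with YY1 letters. NRF1 letters occurred in members of either sign, for example in Ndufaf5 (log2 fold change 0.30) and in Ndufa5 (-0.05). These are matches of letters within the printed window and not sites of binding.

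No Nduf gene passed the test between the groups, and core, accessory and assembly genes each held members on both sides of 0. Genes were compared with limma on log2(FPKM + 1), olanzapine minus vehicle, over the 10285 genes whose mean reached 1 FPKM, and 45 of the 46 members were in the test. At an adjusted p under 0.05, 0 members were higher and 0 lower, where 0.0486% of all tested genes were higher and 0.457% lower. The smallest adjusted p of a member was 0.240, that of Ndufb4l1. At an unadjusted p under 0.05 limma gave 3 members higher, where the background was 3.79%, and 2 members lower, where it was 9.45%. The 3 were Ndufb8, Ndufaf6 and Ndufb4l1 and the 2 were Ndufs1 and Ndufaf1. A Poisson likelihood ratio test on FPKM summed per group, the kind that the study ran and one with no term for the spread between rats, gave 20 members higher against a background of 6.10% and 3 lower against 7.81%, the 3 being Ndufs1, Ndufv1 and Ndufa5. All olanzapine rats exceeded all vehicle rats in 4 members, where the background was 5.12%, and were below all of them in 1 member, where it was 14.6%. The standard error of a member's log2 fold change ran from 0.16 to 0.32, and the 95% interval included 0 in 40 of the 45 members.

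**Figure D1:**
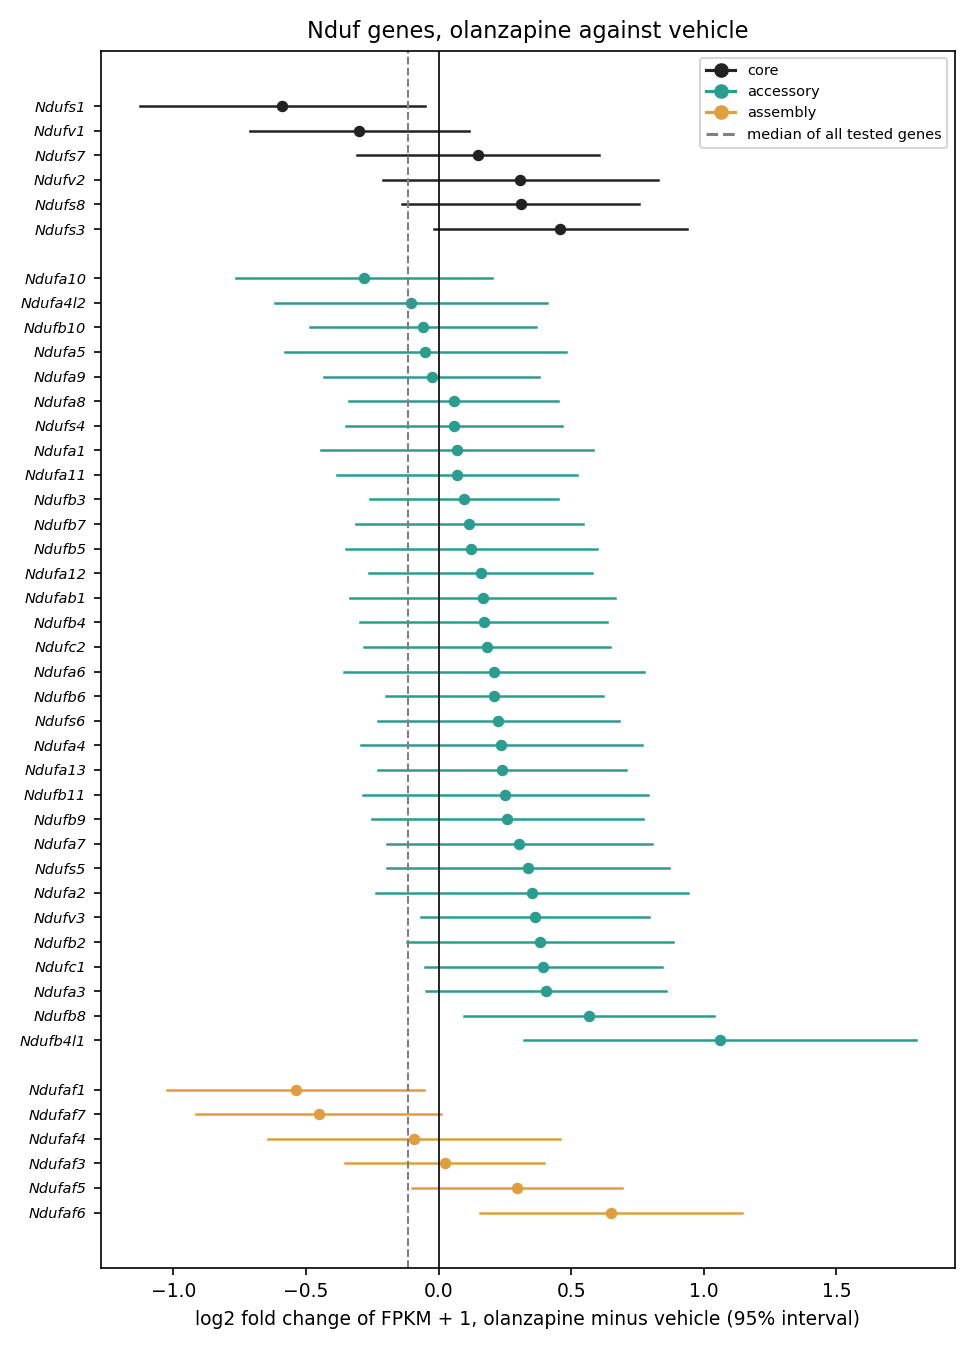
The log2 fold change of FPKM + 1, olanzapine minus vehicle, is plotted for tested Nduf genes with its 95% interval from limma, grouped as core, accessory and assembly genes, with a dashed line at the median of all tested genes. Most accessory genes lie to the right of the dashed line, and most intervals cross 0.

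The members as a group stood above the middle of all genes. Their median log2 fold change was 0.17, beside -0.11 over all 10285 tested genes, and 34 of the 45 were above 0, as were 35.7% of all tested genes. The median was 0.15 for the 7 core genes, 0.20 for the 32 tested accessory genes and -0.04 for the 6 assembly factors. With rats scaled by median-ratio size factors the median of all genes moved to 0.03 and that of the members to 0.34, so 0.32 in place of 0.28 above all genes. Under that scaling Ndufa4l2, Ndufb10, Ndufa5, Ndufa9 and Ndufaf4, all slightly below 0 as deposited, lay above 0. The distance depended on which genes it was set against. Nduf genes are abundant, and among the 620 genes whose mean reached 100 FPKM, a limit chosen after seeing the data, the 32 members had a median of 0.20 and all genes one of 0.15, with 81.3% of the members and 65.8% of all these genes above 0. Without olanzapine rat 12 the median of the members was 0.06 and that of all genes -0.08. Without vehicle rat 9 these were 0.04 and -0.14, and without vehicle rat 3 they were 0.30 and -0.10.

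The rats differed among themselves in the level of the whole set. The Nduf genes together took 1.57%, 1.30% and 1.33% of the total FPKM in vehicle rats 3, 9 and 11 and 1.46%, 1.61% and 1.63% in olanzapine rats 4, 10 and 12. The groups overlapped, since vehicle rat 3 lay above olanzapine rat 4. Of the 45 tested members 31 were highest in olanzapine rat 12 and 26 were lowest in vehicle rat 9. Within the Nduf total, core genes took 21.6% ± 0.510 under vehicle and 20.7% ± 1.62 under olanzapine (SD, n = 3 each). Accessory genes took 77.7% ± 0.530 in the vehicle rats and 78.6% ± 1.63 in the olanzapine rats, and assembly factors 0.760% ± 0.0462 and 0.738% ± 0.0539 (SD, n = 3 each). All these shares overlapped between the groups.

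The core subunits of the NADH-oxidizing tip of the matrix arm differed in sign from each other. Ndufs1, the large subunit whose iron-sulfur clusters lead electrons away from the flavin, lies on chromosome 9 (Rn5, 69728736 to 69762079) and was at 228, 179 and 261 FPKM for vehicle rats 3, 9 and 11 and at 148, 187 and 112 FPKM in olanzapine rats 4, 10 and 12. Only olanzapine rat 10 reached into the vehicle range. Its log2 fold change of -0.59 was the lowest of any member, with an SE of 0.24 and a 95% interval from -1.13 to -0.05 (adjusted p = 0.348 from limma). Ndufv1, which binds NADH and the flavin, lies on chromosome 1 from 226124946 to 226130037 and was at 361, 312 and 303 FPKM under vehicle and at 247, 307 and 240.1 FPKM under olanzapine. Here too olanzapine rat 10 alone overlapped with the vehicle rats (log2 fold change -0.30, 95% interval -0.71 to 0.11, adjusted p = 0.488). Ndufv2, the partner of Ndufv1 in the same tip with an iron-sulfur cluster of its own, was at 729, 482 and 578 FPKM under vehicle and at 626, 687 and 896 FPKM under olanzapine. The groups overlapped through vehicle rat 3 (log2 fold change 0.31, 95% interval -0.21 to 0.83, adjusted p = 0.550).

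The core subunits at the ubiquinone end of the matrix arm that are described here had positive log2 fold changes, none past the test. Ndufs3, a structural core subunit of the matrix arm, lies on chromosome 3 from 86430806 to 86437983 and was at 506, 382 and 437 FPKM for vehicle rats 3, 9 and 11 and at 502, 595 and 737 FPKM in olanzapine rats 4, 10 and 12. Its groups overlapped only in that vehicle rat 3 lay just above olanzapine rat 4. The log2 fold change was 0.46, the highest of the core genes, and had a standard error of 0.21 with an interval from -0.02 to 0.94 (adjusted p = 0.395). Ndufs8, which carries iron-sulfur clusters toward the ubiquinone site, was at 329, 259.6 and 316 FPKM under vehicle and at 315, 374 and 436 FPKM under olanzapine, with overlap (log2 fold change 0.31, adjusted p = 0.505). Ndufs7, which holds the last cluster before ubiquinone, was the most abundant core gene at 947, 685 and 795 FPKM under vehicle and 804, 881 and 994 FPKM under olanzapine. The ranges of both groups lay over each other for most of their width (log2 fold change 0.15, adjusted p = 0.747).

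**Figure D2:**
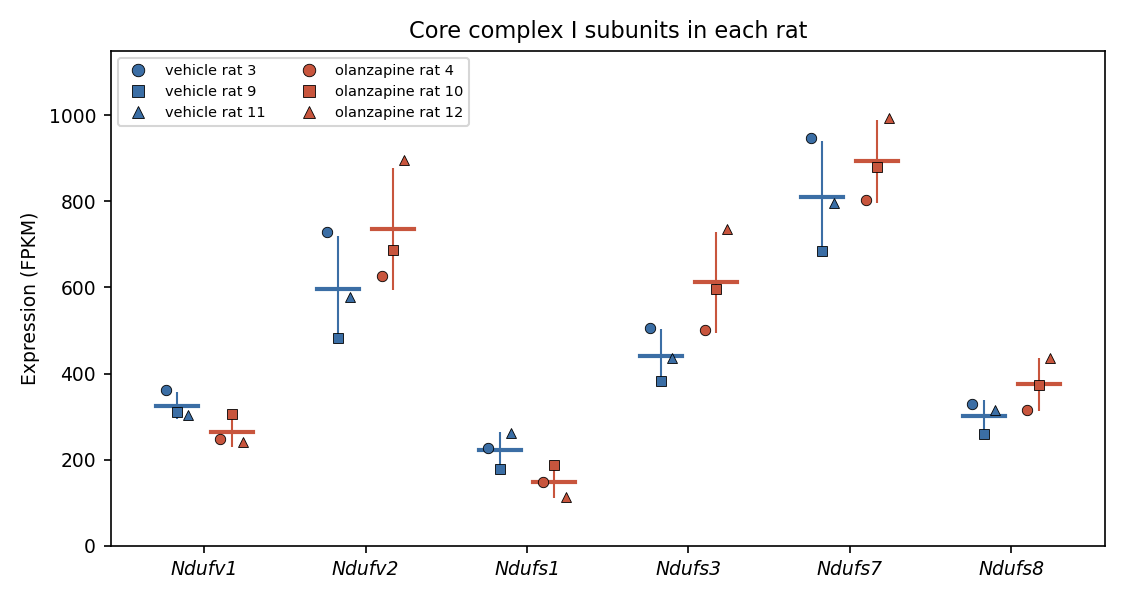
FPKM of 6 core subunits in each rat, with vehicle rats in blue and olanzapine rats in red, a horizontal bar at the group mean and a vertical line of 1 SD to each side (n = 3). Ndufs1 and Ndufv1 have the lower mean in the olanzapine rats, Ndufs3, Ndufs8, Ndufv2 and Ndufs7 the higher one, and in all 6 genes at least 1 rat of a group reaches the other group.

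Because a ratio of 2 genes within a rat does not depend on how that rat was scaled, pairs of core genes were also set against each other. These pairs were picked after their values had been seen and are given without a test. Ndufs3 per Ndufs1 was 2.23, 2.13 and 1.67 in vehicle rats 3, 9 and 11 and 3.40, 3.18 and 6.56 in olanzapine rats 4, 10 and 12. Ndufv2 per Ndufv1 was 2.02, 1.55 and 1.91 in the vehicle rats and 2.53, 2.24 and 3.73 in the olanzapine rats. Every olanzapine rat was above every vehicle rat in both ratios, and olanzapine rat 12 was the highest. Of the FPKM of the core genes, Ndufs1 accounted for 7.30% ± 1.14 under vehicle and 4.47% ± 1.31 under olanzapine (SD, n = 3 each), and Ndufv1 10.7% ± 1.05 and 7.89% ± 1.35 (SD, n = 3 each).

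**Figure D3:**
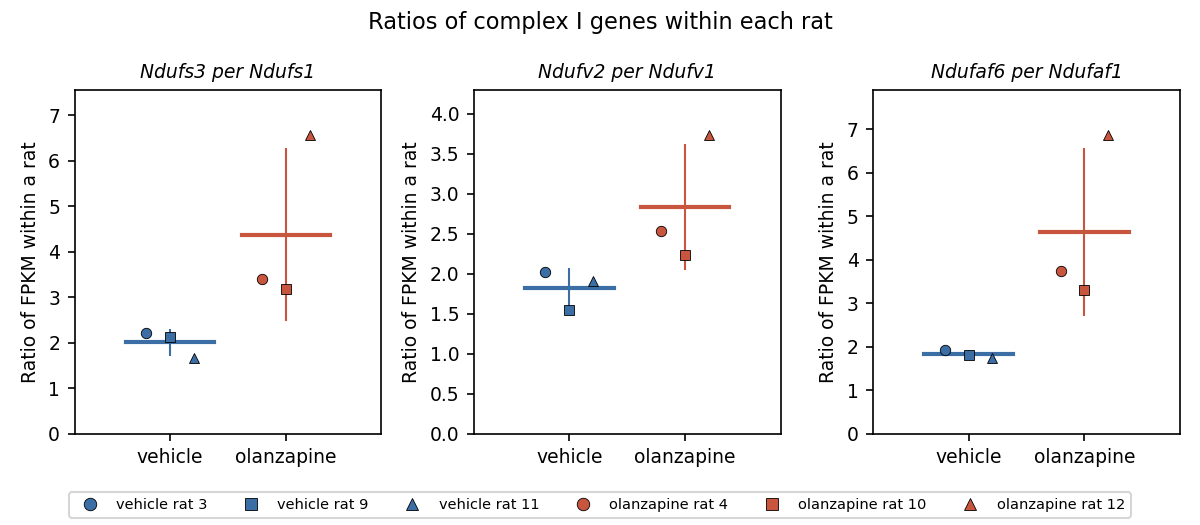
The ratio of FPKM of 2 genes within each rat is plotted for Ndufs3 per Ndufs1, Ndufv2 per Ndufv1 and Ndufaf6 per Ndufaf1, with a horizontal bar at the group mean and a vertical line of 1 SD to each side (n = 3). In each panel the 3 olanzapine rats lie above the 3 vehicle rats, with olanzapine rat 12 the highest. The pairs were picked after their values had been seen, and no test was run on the ratios.

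Most accessory subunits had a positive log2 fold change in every part of the complex, with none called. In the matrix arm 7 of 9 genes were above 0 on the log2 scale, at a median of 0.21, in the proximal membrane arm 8 of 9 with a median of 0.18, and in the distal membrane arm 9 of 10 with a median of 0.19. These counts include the short loci, described below, of Ndufv3 and Ndufs6 (matrix arm), Ndufs5 (proximal) and Ndufb4 (distal). The long row of Ndufv3 was at -0.13, those of Ndufs5 and Ndufb4 at 0.23 and 0.28. With the long rows the median of all accessory genes stayed at 0.20. Ndufab1, the mitochondrial acyl carrier protein that sits in both arms, was at 0.17. Ndufa4, which is named for complex I but was later assigned to cytochrome c oxidase, had a log2 fold change of 0.24.

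Ndufb8 and Ndufa3 were the abundant accessory genes whose groups did not overlap. Such separation, with all olanzapine rats higher, was found in 5.12% of all tested genes. Ndufb8, a subunit of the distal membrane arm, lies on chromosome 1 (Rn5, 271741825 to 271746891) and was at 858, 627 and 669 FPKM for vehicle rats 3, 9 and 11 and at 971, 979.6 and 1235 FPKM in olanzapine rats 4, 10 and 12. All olanzapine rats were above all vehicle rats. The ratio of the means was 1.48, and the log2 fold change 0.57 had a standard error of 0.21 and a 95% interval from 0.10 to 1.04 (adjusted p = 0.312 from limma). Ndufa3, a small subunit of the proximal membrane arm, was at 365, 329.9 and 351 FPKM under vehicle and 397, 424 and 583 FPKM under olanzapine (log2 fold change 0.40, adjusted p = 0.420). Ndufc1, another membrane arm subunit, was at 310.3, 221 and 264 FPKM under vehicle and 303, 351 and 389 FPKM under olanzapine, with vehicle rat 3 above olanzapine rat 4 (log2 fold change 0.40, adjusted p = 0.423). Ndufb2, of the distal arm, was at 846, 673 and 651 FPKM under vehicle and 807, 854 and 1194 FPKM under olanzapine. It overlapped in the same pair of rats (log2 fold change 0.38, adjusted p = 0.475). Ndufb9, the most abundant member, was at 1139, 816 and 910.2 FPKM under vehicle and 1036, 988 and 1414 FPKM under olanzapine (log2 fold change 0.26, adjusted p = 0.614).

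The accessory genes at the other end lay near 0, apart from Ndufa10. Ndufa10, a large subunit on the matrix side with a fold like that of nucleoside kinases, was at 56.0, 41.1 and 49.9 FPKM under vehicle and at 37.9, 50.9 and 32.6 FPKM under olanzapine. Olanzapine rats 4 and 12 were below all vehicle rats and olanzapine rat 10 was not (log2 fold change -0.28, 95% interval -0.76 to 0.20, adjusted p = 0.555), as in Ndufs1 and Ndufv1. Ndufb10 was at 442, 382 and 409 FPKM under vehicle and 337, 463 and 392 FPKM under olanzapine (log2 fold change -0.06, adjusted p = 0.904). Ndufa5, of the ubiquinone module, was at 392, 232 and 353 FPKM under vehicle and 314, 269 and 344 FPKM under olanzapine (log2 fold change -0.05, adjusted p = 0.934). For Ndufb10 the olanzapine rats lay on both sides of the vehicle range, and for Ndufa5 they lay inside it. Ndufa9, which lies beside the ubiquinone pocket, was at 379, 312 and 332 FPKM under vehicle and 294, 348 and 364 FPKM under olanzapine (log2 fold change -0.03, adjusted p = 0.956). Ndufa4l2, a paralogue of Ndufa4 known to respond to hypoxia in other cells, was low at 29.8, 25.0 and 23.3 FPKM under vehicle and 19.2, 33.1 and 21.8 FPKM under olanzapine (log2 fold change -0.11, adjusted p = 0.849). Olanzapine rats lay above and below its vehicle range.

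**Figure D4:**
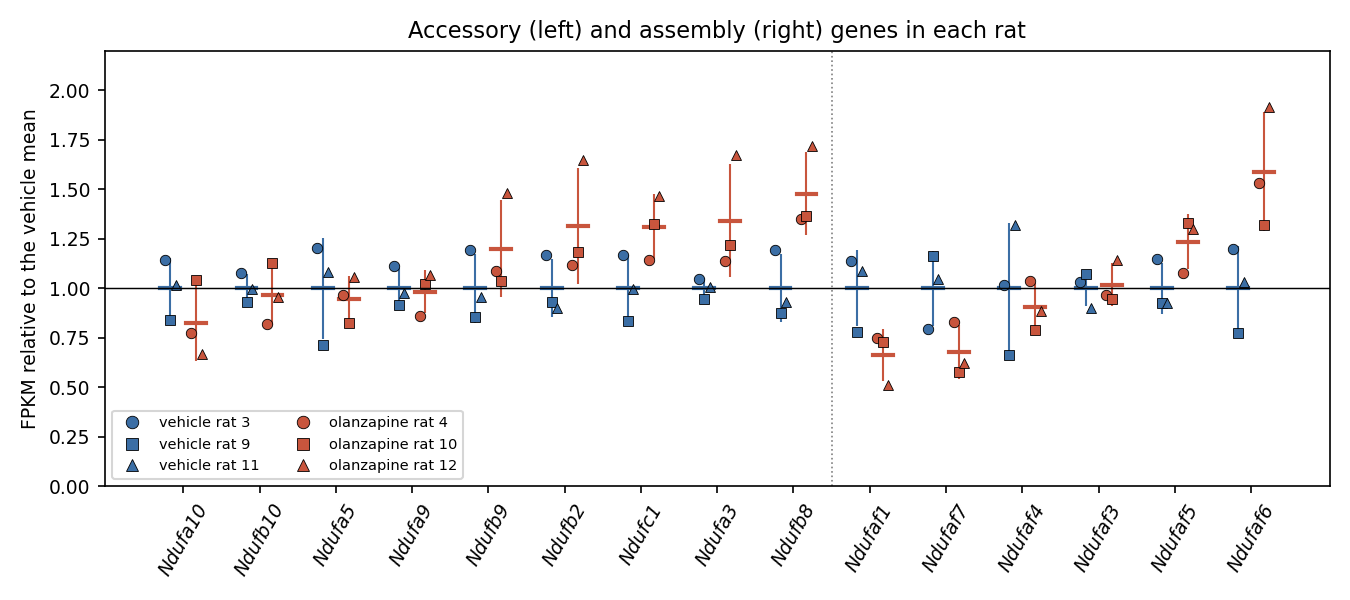
FPKM of 9 accessory and 6 assembly genes in each rat, divided by the mean of the vehicle rats, with a bar at the group mean and a vertical line of 1 SD to each side (n = 3). Ndufb8, Ndufa3 and Ndufaf6 have all olanzapine rats above all vehicle rats and Ndufaf1 has them all below, while in the other genes the groups overlap.

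The assembly factors were expressed far below most subunits and did not share a sign. Their mean over the 6 rats ran from 4.16 FPKM in Ndufaf7 to 33.0 FPKM in Ndufaf3, where Ndufs1, the lowest of the core genes, had a mean of 186 FPKM. Ndufaf6, a protein related to squalene and phytoene synthases that is needed for an early step of assembly in human cells, was at 27.3, 17.6 and 23.5 FPKM for vehicle rats 3, 9 and 11 and at 34.9, 30.1 and 43.6 FPKM in olanzapine rats 4, 10 and 12. The groups did not overlap (ratio of the means 1.59, log2 fold change 0.65, standard error 0.22, adjusted p = 0.269 from limma). Ndufaf1, which builds the membrane arm as part of the MCIA assembly complex, was at 14.1, 9.70 and 13.5 FPKM under vehicle and at 9.31, 9.09 and 6.36 FPKM under olanzapine. It was the member whose olanzapine rats all lay below the vehicle rats (ratio of the means 0.663, log2 fold change -0.54, standard error 0.21, adjusted p = 0.342). Over all tested genes 5.12% were higher without overlap and 14.6% were lower without overlap. Ndufaf6 per Ndufaf1, a pair also chosen after its values were seen, was 1.93, 1.81 and 1.74 in the vehicle rats and 3.75, 3.31 and 6.86 in the olanzapine rats.

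The other assembly factors act on the matrix arm. Ndufaf7, a methyltransferase of the mitochondrial matrix in human cells, was at 3.94, 5.77 and 5.19 FPKM under vehicle and 4.13, 2.87 and 3.08 FPKM under olanzapine, where vehicle rat 3 lay below olanzapine rat 4 (log2 fold change -0.45, adjusted p = 0.384). Ndufaf5, which modifies Ndufs7 in human cells, was at 29.1, 23.5 and 23.5 FPKM under vehicle and 27.2, 33.7 and 32.9 FPKM under olanzapine (log2 fold change 0.30, adjusted p = 0.479). The groups of Ndufaf5 overlapped through vehicle rat 3. Ndufaf4 was at 9.32, 6.08 and 12.1 FPKM under vehicle and 9.49, 7.23 and 8.11 FPKM under olanzapine (log2 fold change -0.09, adjusted p = 0.876), and its partner Ndufaf3 at 33.6, 35.0 and 29.4 FPKM under vehicle and 31.5, 30.9 and 37.3 FPKM under olanzapine (log2 fold change 0.02, adjusted p = 0.958). Neither of these partners separated the groups.

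Assembly factors of complex I without an Nduf symbol were taken from a list of 9, among them Dmac1, which the table gives by its older symbol RGD1309148. None passed the test, and their median log2 fold change was -0.14, beside -0.11 over all tested genes. With median-ratio size factors both medians were 0.03. Acad9, a member of the MCIA complex that is also related to acyl-CoA dehydrogenases, was at 40.5, 24.1 and 27.4 FPKM for vehicle rats 3, 9 and 11 and at 18.1, 13.7 and 11.3 FPKM in olanzapine rats 4, 10 and 12. The groups did not overlap, and it was the 1 gene of the 9 with an unadjusted p under 0.05 (log2 fold change -1.03, standard error 0.24, adjusted p = 0.147 from limma). Over all tested genes, 9.45% were lower at an unadjusted p under 0.05, and 14.6% had all olanzapine rats below all vehicle rats. The other MCIA proteins had values of either sign, at -0.14 for Ecsit, -0.14 for Tmem186, 0.32 for Tmem126b and 0.24 for Timmdc1 on the log2 scale. The 7 mitochondrially encoded subunits, of which the table gives ND1 and ND3 without a prefix, had a median log2 fold change of -0.41, MT-ND4L included, and none was called. MT-ND4, of the membrane arm, was at 9089, 8147 and 10371 FPKM under vehicle and 9254, 4836 and 4875 FPKM under olanzapine (log2 fold change -0.61, adjusted p = 0.424). ND3 was at 15413, 8732 and 11906 FPKM under vehicle and 15424, 7572 and 25355 FPKM under olanzapine (log2 fold change 0.30, adjusted p = 0.778). Its olanzapine rats lay on both sides of the vehicle range. In ND1, MT-ND2, MT-ND4, MT-ND5 and MT-ND6 olanzapine rats 10 and 12 were below all vehicle rats, and olanzapine rat 4 was below all of them in MT-ND6 but not in the other genes. MT-ND4L has a listed value of 0 in 5 of the 6 rats with 8478 FPKM in olanzapine rat 12 alone, and no fold change is given for it.

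Several Nduf symbols stand for loci that RefSeq does not treat as the usual gene. Ndufb4, Ndufs5 and Ndufv3 each had 2 rows, and in each the higher mean, which decided the row, belonged to a locus of short span. The taken row of Ndufv3 spans 327 bases on chromosome 13 (Rn5, 56353959 to 56354285) and was at 364, 273 and 283 FPKM under vehicle and 358, 384 and 437 FPKM under olanzapine. The long row of Ndufv3 spans 9473 bases on chromosome 20 and was at 29.9, 23.5 and 30.4 FPKM under vehicle and 27.7, 23.4 and 24.8 FPKM under olanzapine. The short locus was far above the long one in each rat, and the 2 rows had log2 fold changes of 0.36 and -0.13. For Ndufb4 the short locus on chromosome X and the long one on chromosome 11 were at 0.17 and 0.28, and for Ndufs5 the short locus on chromosome 2 and the long one on chromosome 5 were at 0.34 and 0.23. Ndufs6 had 1 row, which spans 415 bases on chromosome 2 (log2 fold change 0.23). By the genes that flank them, the short loci of Ndufv3, Ndufs5 and Ndufs6 lie where RefSeq assembly GRCr8 has the pseudogenes Ndufv3-ps1, Ndufs5-ps2 and Ndufs6-ps1, with 20, 23 and 21 of 24 flanking genes shared, and that of Ndufb4 where it has Ndufb4l4, with 13 of 24. Reads that fit more than 1 place were not counted by the authors, so how reads of the gene and its copy were divided is uncertain for these 4 symbols. Ndufb4l1, another short locus, was at 0.475, 1.44 and 0 FPKM under vehicle and 2.09, 2.63 and 1.91 FPKM under olanzapine, too low to read a change from (log2 fold change 1.06, adjusted p = 0.240), and Ndufb3l is listed at 0 in all 6 rats and was not tested.

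**Figure D5:**
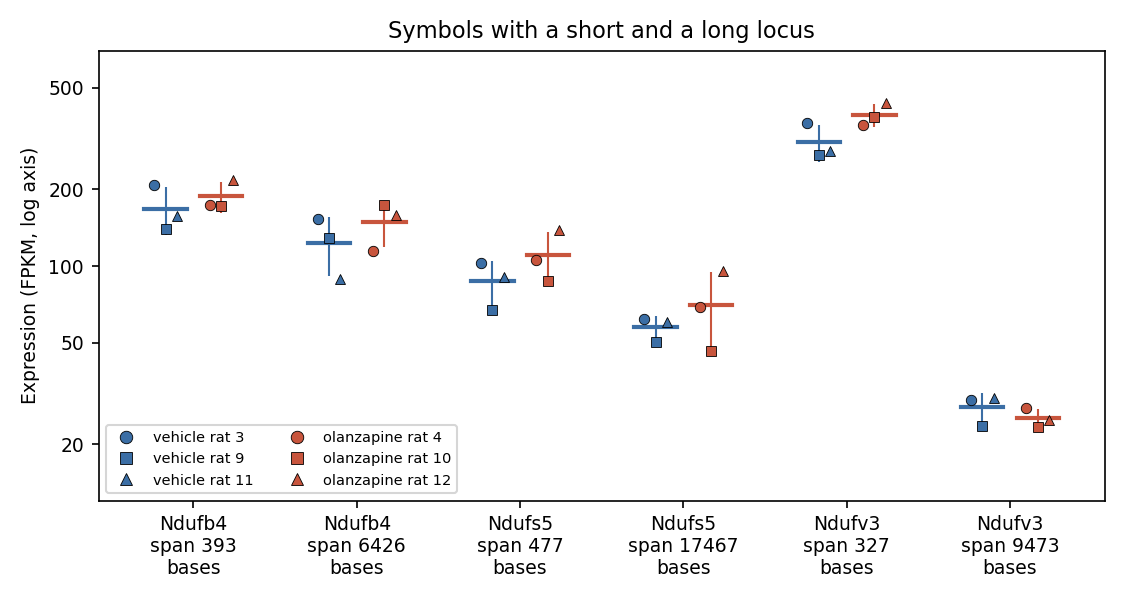
FPKM on a log axis of both rows of Ndufb4, Ndufs5 and Ndufv3 in each rat, with the span of each locus under its symbol, a bar at the group mean and a vertical line of 1 SD to each side (n = 3). The short locus of Ndufv3 lies at 273 to 437 FPKM and its long locus at 23.4 to 30.4 FPKM.

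The members with the lowest values had a longer locus at the median, though not each of them, Ndufv1 being short. Below the median of all tested genes lay 5 members, Ndufs1, Ndufaf1, Ndufaf7, Ndufv1 and Ndufa10, with a median locus span of 11235 bases, and the other 40 had a median span of 6343 bases. Across the 45 members, which share the same 6 libraries, the log2 fold change and the span had a Spearman's rho of -0.30. Over all 10285 tested genes it was -0.26, so the sign was the same over the whole table. Both the -0.30 and the 6343 bases include the short loci of Ndufv3, Ndufb4, Ndufb4l1, Ndufs6 and Ndufs5. These had the shortest spans of the tested members, 327 to 477 bases, and log2 fold changes of 0.17 to 1.06. The rho without them was not computed. With the mean FPKM the rho was 0.32 across the members and 0.21 over all tested genes. The part of length or abundance in the values of Ndufs1 and Ndufv1 was not tested.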

How the data were processed

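Single-end reads were aligned by the authors with TopHat 2.0.9 to Rn5, a build of the rat genome, and the deposited FPKM per Ensembl gene were computed by the authors with Cufflinks 2.2.1 from uniquely mapped reads. Each rat has 1 column. Columns of the authors' own means, standard errors, fold changes and marks of p were not used. Locus starts are printed 1 above those of the table, because the spans of 5 of the 6 short loci are multiples of 3 only when starts are counted from 0, the exception being Ndufs6. Genes whose mean reached 1 FPKM were compared with limma 3.58.1 in R 4.3.3 on log2(FPKM + 1) with a trended prior and Benjamini-Hochberg adjustment over all 10285 of them. On this scale fold changes of low genes are understated. Replicates are rats. The result of 1 gene is not reported here, though it is part of the counts, sums and medians. The fit was tested on simulated data. The number of reads per rat is not given with FPKM, so counting error was not computed. Transcript and protein lengths were not used here and the span of the locus was taken in their place. Genes printed with values in every rat are core genes, the 5 highest and 5 lowest accessory and the 3 highest and 3 lowest assembly genes by log2 fold change, and the most abundant gene of each class. Others named with values were chosen after their values were seen, namely Acad9, Myh1, the mitochondrially encoded genes and the loci with 2 rows. The members and lists were chosen with earlier results of these data known, and the motifs after the fits. The closing part gives the alternatives, namely pseudocount, filter, scaling, variance prior, test and each rat left out. Promoter sequences are those of RefSeq, assembly GRCr8, whose coordinates differ from Rn5.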

Additional observations from a re-analysis of the deposited data

How the results depend on the processing

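No Nduf gene passed an adjusted p under 0.05 in any of the 14 alternatives run with limma, where the smallest was 0.101. Counts at an unadjusted p under 0.05 were 3 higher and 2 lower (over all genes 3.79% and 9.45%), and the Poisson test gave 20 higher and 3 lower (6.10% and 7.81%). The shares over all genes were not matched to the abundance of the members, on which calls of the Poisson test depend. With median-ratio size factors the accessory median was 0.37, and the log2 fold changes of Ndufa4l2 (0.0637), Ndufb10 (0.12), Ndufa5 (0.13), Ndufa9 (0.15) and Ndufaf4 (0.0638) turned positive. Leaving out each rat in turn gave a range of 0.04 to 0.27 for the core median, 0.05 to 0.33 for the accessory median and -0.13 to 0.03 for the assembly median. By the same step Ndufa5 ran from -0.28 to 0.10, Ndufa9 from -0.0876 to 0.0665, Ndufa4l2 from -0.33 to 0.0487, Ndufb10 from -0.18 to 0.0550, Ndufaf3 from -0.0611 to 0.0727 and Ndufaf4 from -0.33 to 0.11. Ndufs1 stayed between -0.77 and -0.40 and Ndufb8 between 0.45 and 0.74 over the alternatives. A filter at a mean of 100 FPKM and the other row of Ndufb4, Ndufs5 and Ndufv3 were added after seeing the data. The planned comparison with transcript or protein length was not run. No paired analysis was run, because the sample labels do not say whether rats of the 2 groups were paired. Read numbers are unknown, which limits what can be said of the low assembly factors and of Ndufb4l1.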

Other observations

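The nuclear subunits of complexes II and III, neighbors of complex I in the respiratory chain, had values of either sign. For complex II the median log2 fold change of 4 genes was -0.13, and for complex III that of 9 genes was 0.12. None was called by limma, and the median over all tested genes was -0.11. With median-ratio size factors the medians were 0.04 for complex II, 0.30 for complex III and 0.03 for all genes. Sdha, the flavoprotein of complex II, stood at 330, 252 and 291 FPKM for vehicle rats 3, 9 and 11 and at 225, 282 and 174 FPKM in olanzapine rats 4, 10 and 12 (log2 fold change -0.38, adjusted p = 0.477). Uqcrc2, a core protein of complex III, was at 533, 331 and 426 FPKM under vehicle and 298, 348 and 297 FPKM under olanzapine (log2 fold change -0.43, adjusted p = 0.424). In both genes olanzapine rats 4 and 12 lay below all vehicle rats and olanzapine rat 10 did not, as in Ndufs1 and Ndufv1. The small complex III subunits Uqcr10 and Uqcrh had all olanzapine rats above all vehicle rats, as had 5.12% of all tested genes. Their log2 fold changes were 0.37 and 0.35 (adjusted p = 0.437 and 0.460 from limma). These genes were picked after their values had been seen.

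Of 6 genes that mark mitochondrial content none was called, with a median log2 fold change of -0.24, beside -0.11 over all tested genes. With median-ratio size factors their median was -0.07 and that of all genes 0.03. Hspd1, a chaperone of the mitochondrial matrix, was at 15.8, 12.9 and 17.9 FPKM under vehicle and 9.80, 11.7 and 6.97 FPKM under olanzapine, without overlap (log2 fold change -0.67, adjusted p = 0.260). Vdac1, a channel of the list, was also lower without overlap (log2 fold change -0.35, adjusted p = 0.456 from limma). Of all tested genes, 14.6% had all olanzapine rats below all vehicle rats. Cs, citrate synthase, was at 305, 264 and 329 FPKM under vehicle and 234, 282 and 203 FPKM under olanzapine (log2 fold change -0.33, adjusted p = 0.476).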
